A study of Mus musculus with 9 samples.

Results

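Wnt signalling is described here through 25 genes of the pathway, read by poly(A) RNA sequencing of the mouse oral squamous cell line ROC6. Members were taken by a rule on their symbols, as Wnt ligands, frizzled and other receptors, secreted antagonists, transducers, nuclear factors and feedback genes, whose mean over the 9 libraries reached 0.3 FPKM. FPKM gives the fragments of a gene relative to its transcript length and to all fragments of the library. The 25 genes stand among 15446 uniquely named genes in the table, of which 8446 reached that floor and were tested. They fall into 5 ligands, 7 receptors or co-receptors, 2 ubiquitin ligases of the receptor, 4 secreted antagonists, 4 intracellular transducers, 1 transcription factor and 2 feedback targets.

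The 3 groups of 3 libraries compared were all of ROC6 cells grown in serum-containing medium: a CSMD3 knockout made with guide 1 (KO guide 1), a CSMD3 knockout made with guide 2 (KO guide 2), and a WT control without the knockout. Per the series' design text each knockout is a clone, so a difference between a knockout and the control cannot be told apart from a difference between clones. The labels do not say that replicates came from separate cultures, and p-values then measure only how far these libraries scatter, and that scatter may be technical. CSMD3 itself was not analysed here.

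In the best-known branch of the pathway, a Wnt ligand binds a frizzled receptor together with Lrp5 or Lrp6, Dishevelled proteins are recruited, and the complex of Axin, Apc and Gsk3 that degrades beta-catenin is inhibited. Beta-catenin then enters the nucleus and works with Tcf and Lef factors. Other ligands, with Wnt5a as the model case, act mainly without beta-catenin, through Ror receptors and the planar cell polarity proteins. In stratified epithelia the pathway is known for its part in stem cell maintenance and in the growth of hair and teeth.

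Facts of the whole table bear on every result. In 15441 of the 15446 genes, all 25 members among them, the 2 knockout means were either both above or both below the control mean, so a shared direction of the 2 guides is no finding here. By RefSeq (GRCm38.p6), 69 protein-coding symbols match the rule and 31 of them had a row; of the 19 Wnt ligands 7 had a row, and genes without one were not analysed here. WT control replicate 3 lay nearest the knockouts in 51.5% of all genes called lower with guide 1 and in 41.5% of those called higher. Of 20 squamous epithelial markers 10 had a row, with summed levels of 140 to 151 FPKM in KO guide 1, 108 to 113 FPKM in KO guide 2 and 95.6 to 105 FPKM in WT control. Most of this was Perp, while Krt16, Krt17 and Col17a1 were at or near 0 in every group. Single markers went both ways. Jup averaged 20.9, 7.99 and 3.09 FPKM in KO guide 1, KO guide 2 and WT control, while Pax9 averaged 7.23, 13.4 and 14.0 FPKM. Of the 7 tested, 5 were called higher and 2 lower with guide 1, where 28.7% and 34.6% of all genes were. With guide 2, 3 were called higher and 1 lower, where 29.6% and 30.3% of all genes were. Of 15 fibroblast markers 5 had a row, and their summed level was 8.90 to 12.3 FPKM in KO guide 1, 14.3 to 15.2 FPKM in KO guide 2 and 3.7 to 4.0 FPKM in WT control. Most of it was Twist2, which averaged 9.25 FPKM in KO guide 1, 5.6 FPKM in KO guide 2 and 2.51 FPKM in WT control, and Postn, at 1.61, 7.83 and 1.3 FPKM in the same groups. Col1a2 averaged 0.0307 FPKM in KO guide 1, 0.827 FPKM in KO guide 2 and 0.0139 FPKM in WT control, Col6a3 averaged 0.0913 and 0.498 FPKM in KO guide 1 and KO guide 2 and was listed at 0 in WT control, and Dpt was at or near 0 throughout. Of 10 salivary and glandular markers 6 had a row, summing to 50.6 to 54.6 FPKM in KO guide 1, 172 to 183 FPKM in KO guide 2 and 23.4 to 25.4 FPKM in WT control, nearly all of it Aqp5. The summed markers of endothelium, leukocytes and neural cells, with 4, 3 and 4 rows of 10 listed each, stayed under 3 FPKM in every library. In a bulk culture, fewer cells of a type and less RNA per cell cannot be told apart, and the part of these markers in the results below was not tested.

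In KO guide 1, 20 of the 25 members differed from WT control, 7 higher and 13 lower, and in KO guide 2 15 differed, 8 higher and 7 lower (limma adjusted p under 0.05). These are 80% and 60% of the members, where 63.4% and 59.9% of all genes tested were called, so the share for guide 2 was at the background. By direction, 28.7% of all genes were called higher and 34.6% lower with guide 1, and 29.6% higher and 30.3% lower with guide 2. The libraries of knockout and control did not overlap for 7 members above and 12 below the control with guide 1, where 68.2% of all genes did not overlap (31.4% above, 36.8% below). With guide 2 they did not overlap for 9 above and 9 below, where 64.6% of all genes did not (31.8% above, 32.8% below). Calls of at least 1 log2 unit were made for 4 members with guide 1 (Sfrp1, Lgr4, Wnt5b and Wnt16) and for 6 with guide 2 (the same 4, Wnt6 and Rnf43), where 9.48% and 7.66% of all genes reached that size. The count depends on the pseudocount, here 1 FPKM: with 0.1 FPKM it was 11 members with guide 1 and 10 with guide 2, and 17.0% and 13.8% of all genes. Among the members with large calls at 1 FPKM, Wnt16 reached the floor only through WT control, and Wnt6 and Rnf43 only through KO guide 2. Their calls that involve those groups are no separate support for the high levels there. The median log2 fold change of the members was -0.24 with guide 1 and -0.05 with guide 2, beside -0.03 and -0.02 over all genes. Both knockouts were set against the same 3 controls, so their values are given side by side and not as independent evidence.

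Sequence around the starts of Wnt5b, Wnt16, Wnt6 and Lgr4 is shown first, because these genes carry most of the large changes among receptors and ligands. Each run is 300 bases from RefSeq (GRCm38.p6), 250 before and 50 after an annotated start, written 5′ to 3′ on the gene's strand. Capitals mark a match to the Tcf/Lef core, searched on both strands. The letters searched were CTTTGAA and also CTTTGAT, and with the other ending CTTTGTA and also CTTTGTT; no other motif was searched. The Wnt5b run belongs to 1 of its 3 listed starts, the only 1 of them with a match.
Wnt5b (chr6:119449337-119449636, minus strand): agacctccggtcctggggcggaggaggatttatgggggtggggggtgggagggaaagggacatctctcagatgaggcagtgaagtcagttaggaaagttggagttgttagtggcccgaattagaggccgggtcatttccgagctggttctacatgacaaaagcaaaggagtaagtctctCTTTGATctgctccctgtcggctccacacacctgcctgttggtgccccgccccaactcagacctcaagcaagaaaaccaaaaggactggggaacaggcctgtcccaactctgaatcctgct
Wnt16 (chr6:22287977-22288276, plus strand): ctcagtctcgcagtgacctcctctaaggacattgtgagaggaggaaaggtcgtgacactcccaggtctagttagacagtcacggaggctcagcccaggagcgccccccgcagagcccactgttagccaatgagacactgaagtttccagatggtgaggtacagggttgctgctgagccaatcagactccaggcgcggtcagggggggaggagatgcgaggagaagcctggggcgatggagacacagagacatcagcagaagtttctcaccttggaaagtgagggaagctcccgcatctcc
Wnt6 (chr1:74771642-74771941, plus strand): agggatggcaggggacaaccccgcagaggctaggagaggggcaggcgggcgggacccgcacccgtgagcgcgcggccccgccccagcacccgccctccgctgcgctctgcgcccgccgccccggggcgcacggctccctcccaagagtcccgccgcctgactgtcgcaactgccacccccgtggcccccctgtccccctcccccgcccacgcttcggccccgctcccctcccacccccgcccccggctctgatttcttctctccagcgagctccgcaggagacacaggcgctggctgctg
Lgr4 (chr2:109917397-109917696, plus strand): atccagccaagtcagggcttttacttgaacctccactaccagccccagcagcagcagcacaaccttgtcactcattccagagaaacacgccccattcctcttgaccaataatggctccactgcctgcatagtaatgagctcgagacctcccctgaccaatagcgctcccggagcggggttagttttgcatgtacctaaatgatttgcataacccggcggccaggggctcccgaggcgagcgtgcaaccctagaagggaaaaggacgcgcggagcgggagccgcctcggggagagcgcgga
The Wnt5b run held 1 match, CTTTGAT, and the other 3 held 0, as did the other 2 listed starts of Wnt5b. Of all 32544 promoters of this length in the table, 16.9% held a match, and of the 19 promoters found for 16 members, 10.5% did. The count of CG dinucleotides was 7 in the Wnt5b run, 10 in Wnt16, 31 in Wnt6 and 18 in Lgr4, where the median of all promoters was 7. At the other 2 listed starts of Wnt5b it was 47 and 4. A match is a string of letters and says nothing of binding, and which start the cells used is not known from these values.

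Among the ligands, Wnt5a, Wnt5b and Wnt16 fell in both knockouts, and Wnt6 was high in KO guide 2 alone. Wnt5b, the close relative of Wnt5a, was at 0.0565, 0.106 and 0.149 FPKM in KO guide 1, at 1.58, 2.12 and 1.45 FPKM in KO guide 2, and at 9.49, 9.17 and 6.05 FPKM in WT control. The 3 groups did not overlap, and guide 1 left the least. Its log2 fold change was -3.04 with guide 1 (SE 0.148, limma adjusted p = 6.12e-08) and -1.75 with guide 2 (SE 0.148, limma adjusted p = 3.96e-06). Fold changes are on the log2(FPKM + 1) scale, which understates the change of low genes: with a pseudocount of 0.1 FPKM the guide 1 value of Wnt5b was -5.35.

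Wnt16, a ligand known in mouse bone and in keratinocytes, was at 0.117, 0.154 and 0.0646 FPKM in KO guide 1, at 0.0985, 0.05 and 0.0885 FPKM in KO guide 2, and at 4.15, 3.38 and 2.67 FPKM in WT control. All 6 knockout libraries lay far under all 3 controls, and the knockouts overlapped each other. The log2 fold changes were -1.97 with guide 1 (limma adjusted p = 1.93e-07) and -2.01 with guide 2 (limma adjusted p = 2.16e-07), or -4.05 and -4.28 with a pseudocount of 0.1 FPKM. Wnt6, a ligand of embryonic ectoderm, was at 0.0228, 0 and 0.0659 FPKM in KO guide 1, at 4.26, 4.19 and 3.94 FPKM in KO guide 2, and listed at 0 in all 3 WT control libraries. It passed the test for guide 2 against the control (limma adjusted p = 2.7e-09) and not for guide 1 (limma adjusted p = 0.604), and no fold is given against a group listed at 0. Wnt6 reached the floor of 0.3 FPKM only through KO guide 2, where it averaged 4.13 FPKM. Wnt16 reached it only through WT control, where it averaged 3.4 FPKM. Tests of either gene that involve that group are therefore no separate support for its high level there.

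Wnt5a was per length the most abundant of the 7 ligands with a row. It was at 17.8, 17.4 and 19.0 FPKM in KO guide 1, at 17.3, 18.6 and 18.8 FPKM in KO guide 2, and at 30.9, 27.6 and 29.0 FPKM in WT control. The knockouts overlapped each other and lay under every control. The log2 fold changes were -0.66 and -0.65 with guide 1 and guide 2 (SE 0.0569 each, limma adjusted p = 3.83e-06 and 5.24e-06). Wnt10b, a ligand of hair follicle and bone, averaged 0.985 ± 0.0962 FPKM in KO guide 1, 1.18 ± 0.0406 FPKM in KO guide 2 and 0.887 ± 0.0991 FPKM in WT control (SD, n = 3 each). Its guide 2 call (limma adjusted p = 0.0297) was lost without KO guide 2 replicate 2, KO guide 2 replicate 3 or WT control replicate 3, where limma gave an adjusted p of 0.0827, 0.0644 and 0.086, and after quantile normalization (limma adjusted p = 0.0541).

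**Figure D1:**
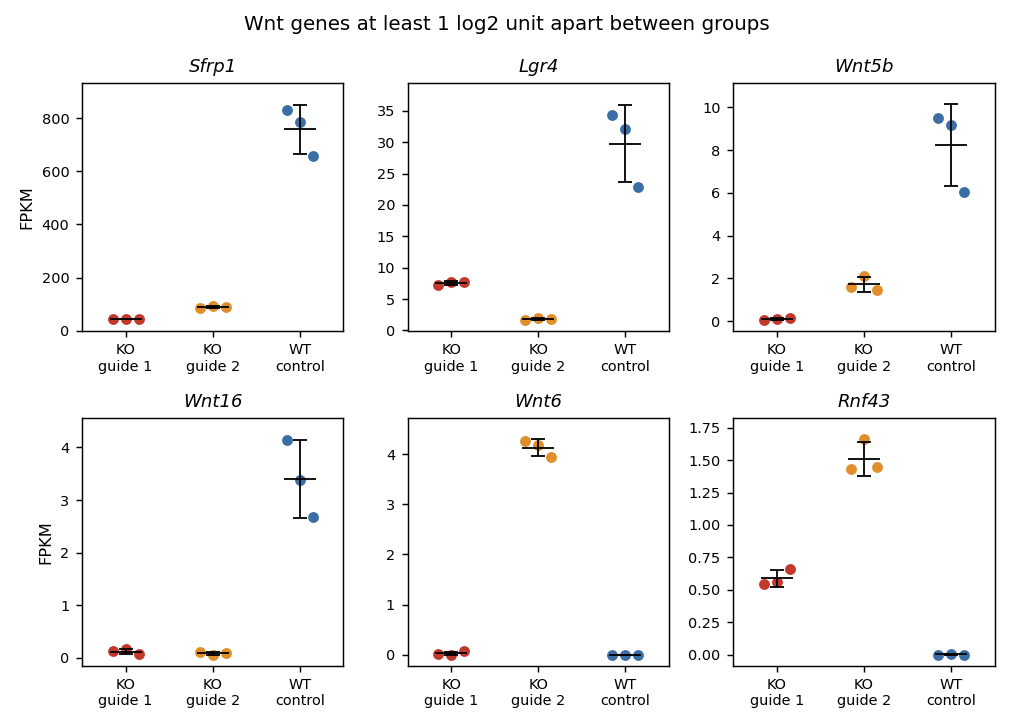
FPKM of the 6 members called at least 1 log2 unit apart from the control in either knockout on the log2(FPKM + 1) scale, 1 panel a gene with its own linear axis. Points are the 3 libraries of each group, and the bars give the mean and SD. Sfrp1, Lgr4, Wnt5b and Wnt16 are high in WT control, while Wnt6 sits between 3.94 and 4.26 FPKM in KO guide 2 and near 0 elsewhere.

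Among the receptors, Lgr4 and Lrp5 fell in both knockouts, Fzd6 rose in both, and 4 others passed the test with guide 1 alone. With guide 1 all 7 receptors were called, 1 higher and 6 lower, where 63.4% of all genes were called and 34.6% were lower. Among the 6 lower, Fzd9 reached the floor only through WT control. With guide 2, 1 was higher and 2 lower, where 59.9% of all genes were called and 30.3% were lower. Lgr4, which binds R-spondins and thereby keeps frizzled receptors on the surface, was at 7.16, 7.70 and 7.78 FPKM in KO guide 1, at 1.70, 1.92 and 1.73 FPKM in KO guide 2, and at 34.3, 32.1 and 22.8 FPKM in WT control. No 2 groups overlapped, and KO guide 2 was lowest. The log2 fold changes were -1.83 with guide 1 (95% interval -2.11 to -1.55, limma adjusted p = 6.79e-07) and -3.45 with guide 2 (95% interval -3.73 to -3.17, limma adjusted p = 1.15e-08).

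Lrp5, a co-receptor for Wnt ligands, was at 7.44, 7.09 and 7.32 FPKM in KO guide 1, at 4.63, 5.04 and 4.74 FPKM in KO guide 2, and at 10.9, 10.3 and 9.59 FPKM in WT control. The groups were again separate, in the same order as for Lgr4. The log2 fold changes were -0.44 and -0.96 with guide 1 and guide 2 (SE 0.0581 each, limma adjusted p = 8.11e-05 and 3.87e-07). Fzd6, a frizzled linked in the mouse to the orientation of hairs, went the other way. It was at 17.8, 17.8 and 18 FPKM in KO guide 1, at 13.7, 13.7 and 14.5 FPKM in KO guide 2, and at 10.2, 8.80 and 9.28 FPKM in WT control. Its log2 fold changes were 0.86 and 0.53 (SE 0.0544 each, limma adjusted p = 4.11e-07 and 1.76e-05).

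Fzd2 was per length the most abundant of the 4 frizzled receptors with a row, where RefSeq lists 10. It was at 32.1, 32.4 and 36.7 FPKM in KO guide 1, at 36.4, 40.4 and 41.2 FPKM in KO guide 2, and at 40.2, 40.7 and 38.8 FPKM in WT control. Guide 1 lay under every control and guide 2 overlapped them. The log2 fold change was -0.24 with guide 1 (limma adjusted p = 0.00798), a call that was lost after quantile normalization (-0.17, limma adjusted p = 0.0624), and -0.02 with guide 2 (limma adjusted p = 0.781), where the sign turned under the same setting. Fzd8 was at 3.23, 3.49 and 4.11 FPKM in KO guide 1, at 4.99, 5.48 and 5.31 FPKM in KO guide 2, and at 6.31, 5.66 and 6.52 FPKM in WT control. It fell with guide 1 (log2 fold change -0.64, limma adjusted p = 5.59e-05), and the guide 2 value of -0.19 did not pass (limma adjusted p = 0.0594). That value passed when only the compared libraries were fitted (limma adjusted p = 0.0427) or when KO guide 1 replicate 1, KO guide 1 replicate 3 or WT control replicate 2 was left out (limma adjusted p = 0.0498, 0.0331 and 0.0389).

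The remaining receptors were near the floor. Ror1, a receptor tyrosine kinase for Wnt5a, averaged 0.283 ± 0.0902 FPKM in KO guide 1, 0.739 ± 0.13 FPKM in KO guide 2 and 0.878 ± 0.0352 FPKM in WT control (SD, n = 3 each). Fzd9 averaged 0.0758 ± 0.032, 0.493 ± 0.116 and 0.882 ± 0.388 FPKM in KO guide 1, KO guide 2 and WT control (SD, n = 3 each). Both fell with guide 1 (log2 fold change -0.55 and -0.79, limma adjusted p = 0.000238 and 0.000428; with a pseudocount of 0.1 FPKM, -1.38 and -2.43). With guide 2 neither passed, at -0.11 for Ror1 and -0.32 for Fzd9 (limma adjusted p = 0.273 and 0.0593). The Fzd9 value passed without WT control replicate 1 or 3 (limma adjusted p = 0.0493 and 0.0279) and after quantile normalization (limma adjusted p = 0.0382). Without WT control replicate 2, the highest Fzd9 control, it was -0.15 (limma adjusted p = 0.201). Fzd9 reached the floor of 0.3 FPKM only through WT control. Its tests against WT control are therefore no separate support for the high level there.

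Of the paired ubiquitin ligases that remove frizzled receptors from the surface, Rnf43 rose and Znrf3 did not pass. Rnf43 was at 0.541, 0.560 and 0.662 FPKM in KO guide 1, at 1.43, 1.66 and 1.45 FPKM in KO guide 2, and at 0, 0.00846 and 0 FPKM in WT control. The groups did not overlap, and the controls were almost without signal. The log2 fold changes were 0.66 and 1.32 with guide 1 and guide 2 (SE 0.0723 each, limma adjusted p = 2.1e-05 and 1.83e-07), or 2.74 and 3.97 with a pseudocount of 0.1 FPKM. Rnf43 reached the floor of 0.3 FPKM only through KO guide 2, where it averaged 1.51 FPKM. Its tests that involve KO guide 2 are therefore no separate support for the high level there. Znrf3 averaged 2.44 ± 0.182 FPKM in KO guide 1, 2.18 ± 0.166 FPKM in KO guide 2 and 2.47 ± 0.358 FPKM in WT control (SD, n = 3 each). The 95% intervals of its log2 fold change ran from -0.2 to 0.18 with guide 1 and from -0.31 to 0.07 with guide 2.

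Sfrp1 was the most abundant member per length over the 9 libraries, and it fell in both knockouts. It encodes a secreted protein with a frizzled-like domain that binds Wnt ligands. Its level was 43.8, 42.5 and 44.1 FPKM in KO guide 1, 86.1, 91.3 and 89.7 FPKM in KO guide 2, and 831, 785 and 656 FPKM in WT control. By the ratio of group means KO guide 1 was 17.4-fold and KO guide 2 8.51-fold under WT control. The same ratio with guide 1 was larger for scarcer members, 79.3-fold for Wnt5b, 30.4-fold for Wnt16 and 20.0-fold for Wif1. With guide 2 it was larger for Wnt16, Lgr4 and Wif1, at 43.1-fold, 16.7-fold and 13.1-fold. The 95% intervals of the Sfrp1 log2 fold change were -4.25 to -3.92 and -3.24 to -2.90. Leaving out any 1 library kept it between -4.18 and -4.01 with guide 1 and between -3.17 and -3.00 with guide 2.

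The other antagonists went both ways and were lower in level. Dkk3, a divergent member of the Dickkopf family, was at 48.1, 45.8 and 50.1 FPKM in KO guide 1, at 51.7, 53.9 and 53.0 FPKM in KO guide 2, and at 64.9, 62.5 and 49.0 FPKM in WT control. The control range took in all 3 libraries of KO guide 2 and 1 of KO guide 1, and WT control replicate 3 was its low end. Its guide 1 call (log2 fold change -0.28, limma adjusted p = 0.0212) was lost without KO guide 1 replicate 2, WT control replicate 1 or WT control replicate 2 (limma adjusted p = 0.0707, 0.0839 and 0.0767), with no filter (limma adjusted p = 0.0567) and after quantile normalization (limma adjusted p = 0.0852). The guide 2 value of -0.14 did not pass (limma adjusted p = 0.204) but did without WT control replicate 3, at -0.26 (limma adjusted p = 0.00132).

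Dkk2, which binds Lrp5 and Lrp6, was at 0.879, 1.08 and 0.849 FPKM in KO guide 1, at 0.161, 0.206 and 0.265 FPKM in KO guide 2, and at 0, 0.0449 and 0 FPKM in WT control. It rose with guide 1 (log2 fold change 0.93, limma adjusted p = 3.45e-06; 3.19 with a pseudocount of 0.1 FPKM). With guide 2 it rose by 0.25 (limma adjusted p = 0.0181), a call that was lost without KO guide 2 replicate 3 (limma adjusted p = 0.0646) and after quantile normalization (limma adjusted p = 0.0505). Wif1, which binds Wnt ligands in the extracellular space, was at 0, 0 and 0.121 FPKM in KO guide 1, at 0.0164, 0.0450 and 0.124 FPKM in KO guide 2, and at 1.05, 1.14 and 0.229 FPKM in WT control. It fell in both (log2 fold change -0.76 and -0.72, limma adjusted p = 0.00464 and 0.00642; -2.58 and -2.32 with a pseudocount of 0.1 FPKM), with WT control replicate 3 far under the other controls.

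Wif1 and Dkk2, with means of 0.303 and 0.387 FPKM over the 9 libraries, were the members just inside the floor of 0.3 FPKM. Dkk2 passed it only through KO guide 1, where it averaged 0.935 FPKM, and Wif1 only through WT control, at 0.806 FPKM. Their tests against those groups are therefore no separate support for the high levels there. Just outside the floor were Notum, a secreted enzyme that removes the lipid of Wnt ligands, at 0.261 FPKM, the agonist Rspo1 at 0.222 FPKM and Sfrp2 at 0.175 FPKM. Notum was at 0, 0.122 and 0.0718 FPKM in KO guide 1, at 0.256, 0.243 and 0.392 FPKM in KO guide 2, and at 0.366, 0.608 and 0.289 FPKM in WT control. Sfrp2 was listed at 0 in all KO guide 1 libraries, at 0.0191, 0 and 0 FPKM in KO guide 2, and at 0.469, 0.560 and 0.523 FPKM in WT control. Rspo1 was at 0.0951, 0.0550 and 0.0153 FPKM in KO guide 1, at 0.487, 0.745 and 0.514 FPKM in KO guide 2, and at 0.0519, 0 and 0.0306 FPKM in WT control. These genes were not tested, and the remaining 4 of the 7 under the floor, Rspo4os, Wnt2b, Rspo2 and Wnt1, averaged at most 0.168 FPKM.

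**Figure D2:**
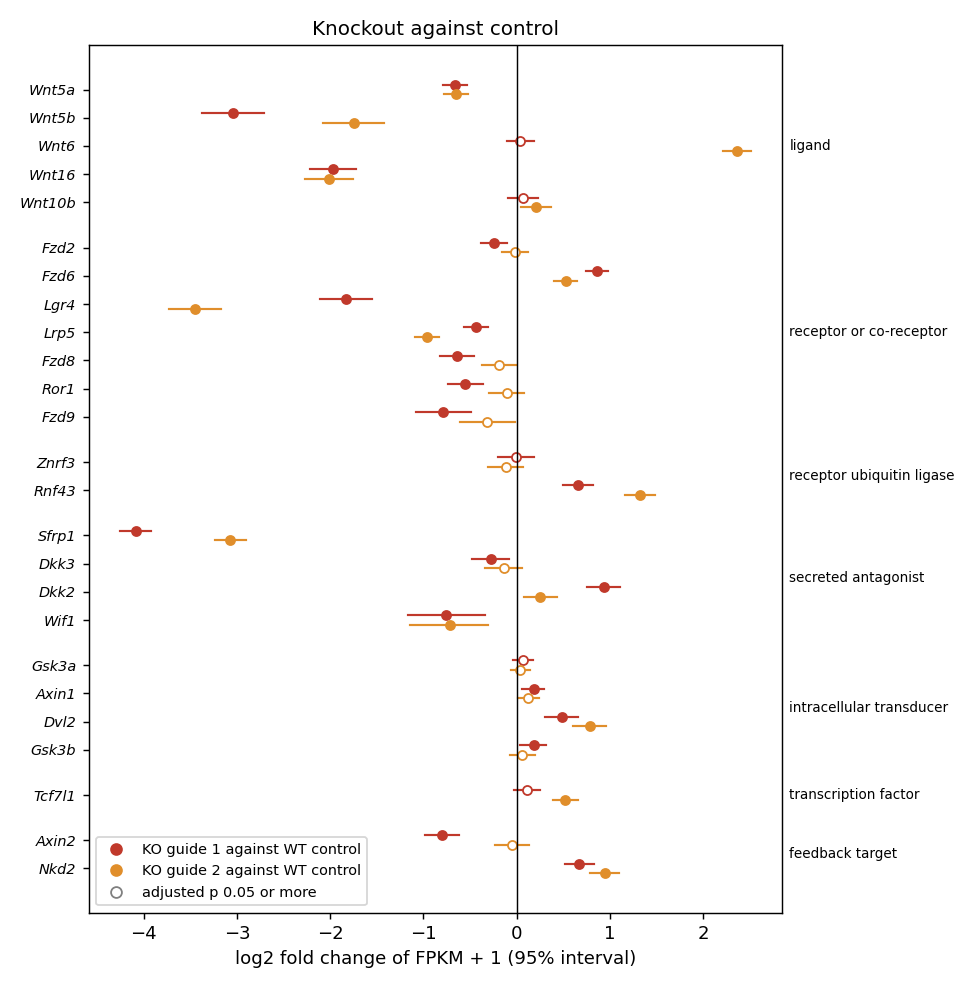
Log2 fold change of FPKM + 1 for all 25 members, grouped by role, with 95% intervals from the limma fit. Red is KO guide 1 and orange KO guide 2, each against WT control, and open points did not pass an adjusted p of 0.05. Most transducers sit near 0, while Sfrp1, Lgr4, Wnt5b and Wnt16 lie far to the left with both guides. The guide 2 point of Wnt6 is a fitted difference from a control listed at 0 and is no measure of fold.

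Of the 4 intracellular transducers, 3 rose with guide 1 and 1 with guide 2, and none was called lower with either guide. Over all genes, 28.7% were called higher and 34.6% lower with guide 1, and 29.6% and 30.3% with guide 2. A set of 4 genes is too small to be set apart from those shares. Gsk3a, a kinase of the destruction complex, was at 39.7, 38.3 and 41.6 FPKM in KO guide 1, at 39.5, 37.3 and 40.5 FPKM in KO guide 2, and at 37.5, 38.0 and 38.4 FPKM in WT control. It did not pass with either guide (limma adjusted p = 0.225 and 0.463), with 95% intervals of -0.04 to 0.17 and -0.06 to 0.14 on the log2 scale. After quantile normalization its guide 1 value was 0.13 and passed (limma adjusted p = 0.0248). By GENCODE exons, 28.3% of its exon bases lie opposite an antisense gene, and whether counting used strand is not given in the sources used here.

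Gsk3b, its partner kinase, was at 14.6, 12.8 and 14.6 FPKM in KO guide 1, at 12.2, 13.3 and 13.0 FPKM in KO guide 2, and at 12.5, 11.9 and 12.2 FPKM in WT control. It rose by 0.18 with guide 1 (limma adjusted p = 0.0251), which did not pass without KO guide 1 replicate 1 or 3 or WT control replicate 2 or 3 (limma adjusted p of 0.0889, 0.0887, 0.0772 and 0.0501), and its guide 2 value of 0.06 did not pass (limma adjusted p = 0.378). Axin1, the scaffold of the complex, was at 35.1, 32.0 and 32.5 FPKM in KO guide 1, at 30.4, 32.5 and 32.5 FPKM in KO guide 2, and at 29.1, 28.1 and 30.4 FPKM in WT control. It rose by 0.18 with guide 1 (limma adjusted p = 0.0117). Its guide 2 value of 0.12 (limma adjusted p = 0.0672) passed after quantile normalization or trimmed mean rescaling, and without KO guide 2 replicate 1 or WT control replicate 3 (limma adjusted p of 0.0371, 0.0404, 0.0379 and 0.044).

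Dvl2, a Dishevelled protein that relays the receptor signal, was the transducer that rose in both. It was at 16.8, 15.0 and 15.0 FPKM in KO guide 1, at 16.8, 21.1 and 20.5 FPKM in KO guide 2, and at 11.2, 10.7 and 10.8 FPKM in WT control. All 6 knockout libraries lay above the controls, with log2 fold changes of 0.48 and 0.78 (SE 0.0813 each, limma adjusted p = 0.00049 and 1.89e-05). By GENCODE exons, 18.3% of its exon bases lie opposite exons of Acadvl, so reads of the pair cannot be told apart unless strand was used.

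Tcf7l1, a Tcf factor known mainly as a repressor of Wnt targets, was at 6.86, 6.25 and 7.19 FPKM in KO guide 1, at 9.1, 9.94 and 9.0 FPKM in KO guide 2, and at 6.03, 6.34 and 6.19 FPKM in WT control. KO guide 2 lay above every other library. It rose by 0.52 with guide 2 (SE 0.061, limma adjusted p = 3.99e-05), and the guide 1 value of 0.11 did not pass (limma adjusted p = 0.141) except after quantile normalization or trimmed mean rescaling, at 0.16 and 0.15 (limma adjusted p = 0.0272 and 0.0398).

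The feedback targets did not move together. Axin2, a scaffold induced by beta-catenin and widely used as a readout of it, averaged 0.118 ± 0.0429 FPKM in KO guide 1, 0.878 ± 0.0417 FPKM in KO guide 2 and 0.948 ± 0.162 FPKM in WT control (SD, n = 3 each). It fell with guide 1 (log2 fold change -0.80, limma adjusted p = 1.28e-05; -2.27 with a pseudocount of 0.1 FPKM), and the guide 2 interval ran from -0.23 to 0.13 (limma adjusted p = 0.62). Nkd2, an inhibitor that binds Dishevelled, averaged 0.687 ± 0.0568 FPKM in KO guide 1, 1.04 ± 0.0317 FPKM in KO guide 2 and 0.0579 ± 0.0326 FPKM in WT control (SD, n = 3 each). It rose by 0.67 and 0.95 (limma adjusted p = 1.31e-05 and 1.35e-06), or by 2.33 and 2.87 with a pseudocount of 0.1 FPKM. With guide 1, Axin2 was thus called lower while Nkd2 and Rnf43, both also known as feedback inhibitors, were called higher.

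**Figure D3:**
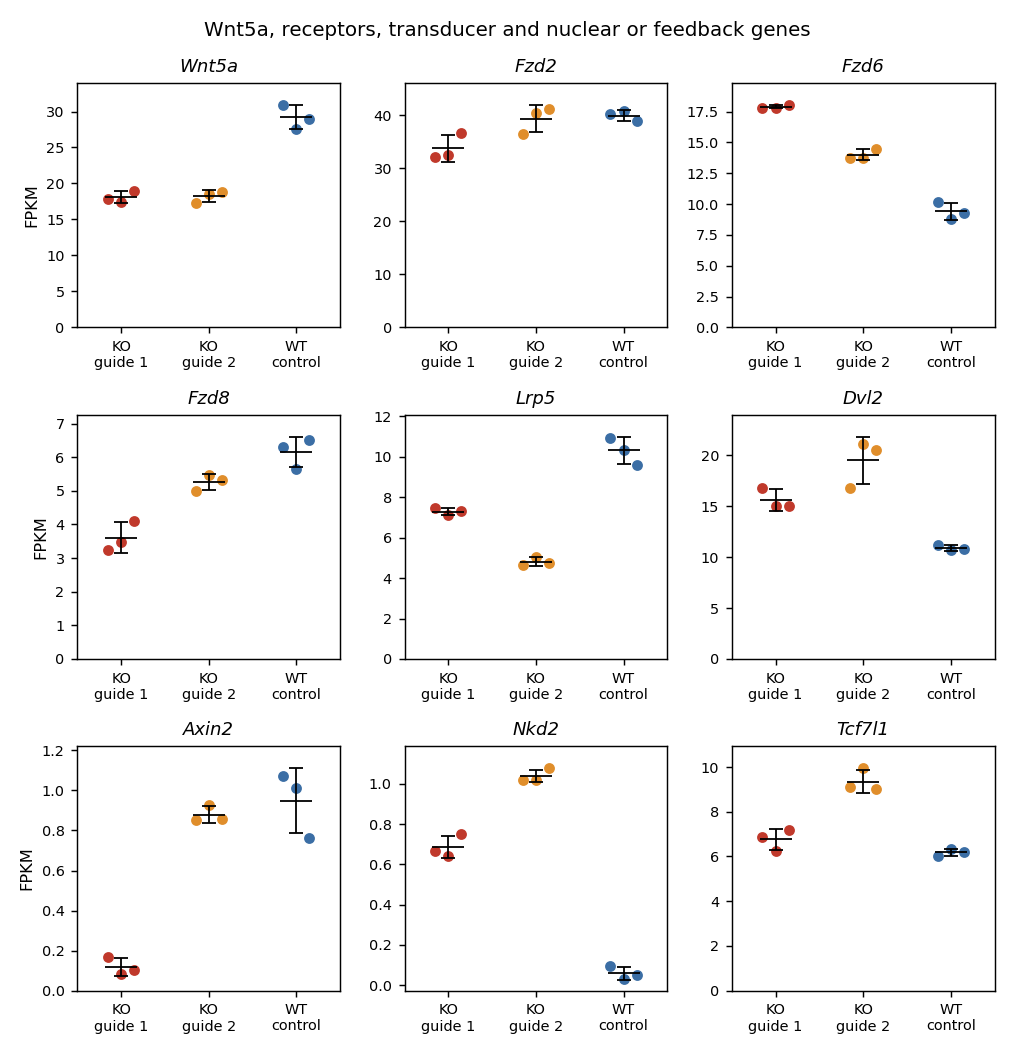
FPKM of Wnt5a, of 4 receptors, and of Dvl2, Axin2, Nkd2 and Tcf7l1, each on its own linear axis, with the 3 libraries of each group as points and the mean and SD as bars. Axin2 is low in KO guide 1, where it averaged 0.118 FPKM, while Nkd2 is low in WT control, where it averaged 0.0579 FPKM.

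WT control replicate 3 was the lowest control in 11 of the 13 members called lower with guide 1 and in 6 of the 7 called lower with guide 2, where the share over all genes called lower was 51.5% and 50.2%. Without it, the log2 fold changes of Sfrp1, Lgr4, Wnt5b, Wnt16 and Wif1 kept their sign and their calls with each guide. Wnt5b, for example, lay between -3.23 and -2.94 with guide 1 over the 9 fits that each left out 1 library. Among members called higher, this library was the control nearest the knockouts in 1 of 7 with guide 1 and 0 of 8 with guide 2. The share over all genes called higher was 41.5% and 42.5%. It thus lay closer to the knockouts mainly in members called lower, and why was not tested.

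Guide 2 was set against guide 1, a comparison that draws on the control only for the shared spread and for which genes are in the table and over the floor. Of the 25 members 16 differed, 12 higher with guide 2 and 4 lower, where 49.0% of all genes were called (27.6% higher, 21.4% lower). The libraries did not overlap for 13 members above and 5 below, where 57.3% of all genes did not overlap (32.0% above, 25.3% below). By at least 1 log2 unit, Wnt6, Wnt5b and Sfrp1 were higher with guide 2 and Lgr4 lower, where 4.57% of all genes reached that size; with a pseudocount of 0.1 FPKM the count was 9 members and 9.19% of all genes. Wnt6 differed by 2.32 (SE 0.0666, limma adjusted p = 6.25e-09), Wnt5b by 1.29 (SE 0.148, limma adjusted p = 5.23e-05), Sfrp1 by 1.02 (SE 0.0757, limma adjusted p = 2.81e-06) and Lgr4 by -1.62 (SE 0.124, limma adjusted p = 3.47e-06). With a pseudocount of 0.1 FPKM, Wnt6 differed by 5.06 and Wnt5b by 3.17. Wnt6 and Rnf43 reached the floor only through KO guide 2 and Dkk2 only through KO guide 1, so their tests here are no separate support for those high levels. All 7 receptors differed between the guides, with Fzd2, Fzd8, Fzd9 and Ror1 higher with guide 2 and Lgr4, Lrp5 and Fzd6 lower. Of these, the Fzd2 call (0.22, limma adjusted p = 0.0175) was lost in the 4 fits without KO guide 1 replicate 1 or 2 or KO guide 2 replicate 2 or 3, with a highest limma adjusted p of 0.067, and the Fzd9 call (0.47, limma adjusted p = 0.0134) without KO guide 2 replicate 2 (limma adjusted p = 0.0507). Axin2 was higher with guide 2 by 0.75 (limma adjusted p = 3.7e-05; 2.18 with a pseudocount of 0.1 FPKM). For Wnt5a the difference was 0.01, with a 95% interval of -0.12 to 0.14, and for Wnt16 -0.04, with a 95% interval of -0.29 to 0.21.

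**Figure D4:**
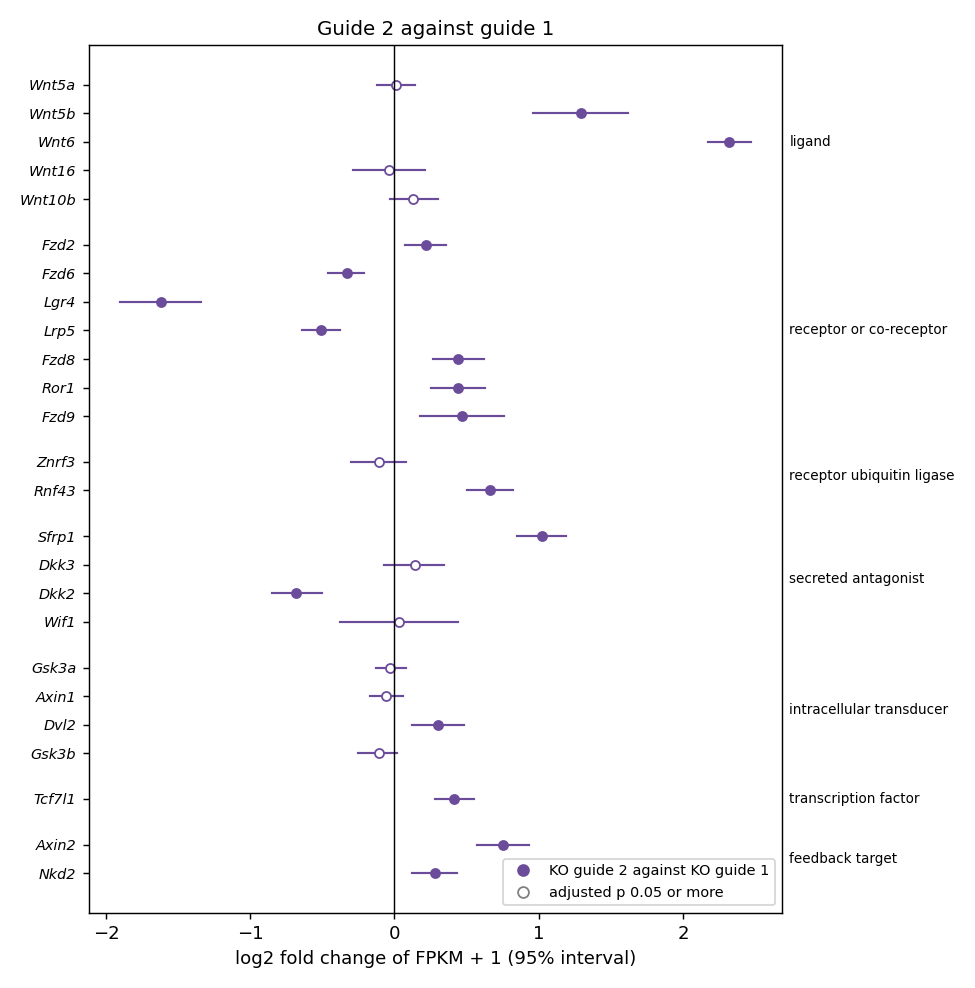
Log2 fold change of FPKM + 1 in KO guide 2 against KO guide 1 for all 25 members, grouped by role, with 95% intervals from the limma fit. Open points did not pass an adjusted p of 0.05. Wnt6 lies farthest to the right, at 2.32, and Lgr4 farthest to the left, at -1.62.

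Genes of the pathway outside the 25 were read from 5 lists. The lists were chosen with earlier results of these data known, so their shares beside those of all genes only describe them. Of secreted modulators and co-receptors, 13 of 27 were tested; 7 rose and 2 fell with guide 1, and 8 rose and 2 fell with guide 2, or 53.8% and 15.4% of those tested with guide 1 and 61.5% and 15.4% with guide 2. Over all genes, for this and the next 4 lists, 28.7% rose and 34.6% fell with guide 1, and 29.6% rose and 30.3% fell with guide 2. The median log2 fold change was 0.19 with guide 1 and 0.63 with guide 2. Cthrc1, a secreted protein that in the mouse favours Wnt5a signalling through polarity proteins, averaged 9.61 ± 1.03 FPKM in KO guide 1, 27.1 ± 1.04 FPKM in KO guide 2 and 3.32 ± 0.57 FPKM in WT control (SD, n = 3 each; log2 fold change 1.30 and 2.71, limma adjusted p = 1.66e-06 and 1.3e-08). The glypican Gpc4 rose by 1.39 and 1.17, and Adgra2, a receptor that aids Wnt7 signalling, by 0.52 and 1.27, with guide 1 and guide 2.

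Of 44 genes of the destruction complex and beta-catenin turnover, 29 were tested, of which 10 rose and 12 fell with guide 1 and 7 rose and 10 fell with guide 2. These shares, 34.5% and 41.4% with guide 1 and 24.1% and 34.5% with guide 2, lay within 10 percentage points of 28.7% and 34.6%, and of 29.6% and 30.3%, over all genes. The medians were -0.09 and -0.06. Dact1, a Dishevelled-binding antagonist, fell by 0.41 and 1.87, the kinase Csnk1g3 by 0.69 and 0.99, and Peg12, a Gsk3-binding protein, by 1.51 with guide 1, with a guide 2 value of -0.09 that did not pass (limma adjusted p = 0.338). Dact1 has 34.9% of its exon bases opposite another transcript. Ctnnb1, which encodes beta-catenin and is named here after its values were seen, rose by 0.43 and 0.51. Of 29 nuclear co-factors 14 were tested; 4 rose and 6 fell with guide 1, and 2 rose and 5 fell with guide 2, with medians of -0.12 and -0.04. With guide 1 these are 28.6% and 42.9% of those tested, beside 28.7% and 34.6% of all genes, and with guide 2 14.3% and 35.7%, beside 29.6% and 30.3%. Ctnnbip1, which blocks beta-catenin from binding Tcf, fell by 1.48 with guide 2 and had a guide 1 value of -0.19 that did not pass (limma adjusted p = 0.0608); 25.8% of its exon bases lie opposite an antisense gene. The co-repressor Tle3 fell by 0.75 with guide 2, and the co-repressor Ctbp1 fell by 0.71 with guide 1, each with a value of -0.05 for the other guide (limma adjusted p = 0.501 for Tle3 with guide 1 and 0.306 for Ctbp1 with guide 2).

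Of 44 planar polarity and beta-catenin-independent genes 27 were tested, of which 9 rose and 10 fell with guide 1 and 11 rose and 7 fell with guide 2, with medians of 0.06 and 0.02. With guide 1 these are 33.3% and 37.0% of those tested, beside 28.7% and 34.6% of all genes, and with guide 2 40.7% and 25.9%, beside 29.6% and 30.3%. Daam2, a formin that acts with Dishevelled, averaged 2.5 ± 0.0899 FPKM in KO guide 1, 2.82 ± 0.109 FPKM in KO guide 2 and 12.1 ± 0.896 FPKM in WT control (SD, n = 3 each; log2 fold change -1.90 and -1.77). Plcb4, a phospholipase, fell by 0.89 and 1.25, and Nfatc1, a calcium-dependent transcription factor, rose by 1.27 and 0.42.

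In the list of reported Wnt target genes outside the 25, more genes were called higher than lower. The list was chosen with earlier results of these data known, so its shares and medians only describe it and are no independent support. Of 53 listed genes 27 were tested; 17 rose and 6 fell with guide 1, and 17 rose and 7 fell with guide 2, or 63.0% and 22.2% of those tested with guide 1 and 63.0% and 25.9% with guide 2, beside 28.7% and 34.6%, and 29.6% and 30.3%, of all genes. The medians were 0.44 and 0.45, beside -0.03 and -0.02 over all genes. Many of these genes are also known targets of other pathways. Hes1, a repressor best known from Notch signalling, averaged 57.2 ± 2.35 FPKM in KO guide 1, 18.5 ± 1.96 FPKM in KO guide 2 and 9.16 ± 2.52 FPKM in WT control (SD, n = 3 each; log2 fold change 2.55 and 0.97). Fosl1, a subunit of AP-1, rose by 2.38 and 1.78, and 57.2% of its exon bases lie opposite exons of Ccdc85b. Id2, an inhibitor of basic helix-loop-helix factors, fell by 2.13 with guide 2, and its guide 1 value of -0.14 did not pass (limma adjusted p = 0.157).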

How the data were processed

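Poly(A) RNA of 9 ROC6 libraries was made into a stranded library and sequenced from both ends, per the labels' protocols. The deposited values are FPKM, 1 column a library, per the file headers. Cutadapt, FastQC, HISAT2 and StringTie are named in the submitters' processing notes, while for versions, build, annotation and strand setting the entry is: not given in the sources used here. Without read totals the counting error cannot be computed, and count tests were not used. No pair of libraries was identical, and the summed FPKM ranged from 162625 to 168620.

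The 174 rows sharing 62 symbols were left out. The 8446 genes averaging at least 0.3 FPKM over the 9 libraries were fitted as log2(FPKM + 1) with limma 3.58.1 in R 4.3.3, all groups together and with a trended prior. Tests were two-sided with Benjamini-Hochberg adjustment, called under 0.05, and were checked on simulated data. Every-library values are given for members with a mean of 5 FPKM or more or a called change of 1 log2 unit, and for some low members beside them; from each list the 3 genes with the largest called changes and a mean of 1 FPKM or more are named. Members and lists were chosen with earlier results of these data known. Alternatives were another pseudocount, other filters, normalizations, prior and library sets, and a replicate block. Promoters came from RefSeq and exon overlaps from GENCODE vM21 (GRCm38), by symbol.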

Additional observations from a re-analysis of the deposited data

Results flagged for a closer look

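The effects of guide 1 and guide 2 against the same control differed for 16 members, by the limma test of guide 2 against guide 1. That is 64% of the members, where 49.0% of all genes were called. Differences of at least 1 log2 unit were found for Wnt6 (2.32), Wnt5b (1.29), Sfrp1 (1.02) and Lgr4 (-1.62), given as guide 2 minus guide 1 on the log2(FPKM + 1) scale. Smaller differences on that scale were 0.75 for Axin2, 0.66 for Rnf43, 0.47 for Fzd9, 0.44 for Fzd8, 0.44 for Ror1, 0.41 for Tcf7l1, 0.30 for Dvl2, 0.28 for Nkd2 and 0.22 for Fzd2. Lower with guide 2 were Dkk2 (-0.68), Lrp5 (-0.51) and Fzd6 (-0.33). Whether these differences follow from the guide or from the clone cannot be told apart. Wnt6 and Rnf43 reached the floor of 0.3 FPKM only through KO guide 2, and Dkk2 only through KO guide 1. For these genes the test between guides is no separate support for the high level in that group.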

How the results depend on the processing

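With a floor of 1 FPKM on the mean, 18 of the 25 members and 6965 genes were tested, by construction fewer. Of these 18 members, 13 were called with guide 1, 11 with guide 2 and 10 for guide 2 against guide 1. Of the 6965 genes, 4745, 4557 and 3793 were called in the same comparisons. Leaving out 1 library gave 18 to 20 called members for guide 1, 13 to 17 for guide 2 and 14 to 17 between guides, and 4973 to 5412, 4635 to 4997 and 3648 to 4261 called genes. The replicate block left 20, 15 and 16 members called, with 5374, 5053 and 4124 genes. Deviations of same-numbered libraries of KO guide 1 and KO guide 2 correlated at 0.202, 0.0333 and 0.164, and those of differently numbered ones from -0.18 to 0.0275. Between knockout and control libraries the range was -0.0712 to 0.0605 for the same number and -0.0769 to 0.132 for different numbers. Whether a replicate number marks a shared culture or day is not given in the labels and was not tested. Of 1329 recomputed fold changes of members, 15 turned sign, 22 lost and 19 gained a call. Those that turned sign were uncalled values near 0: Fzd2 with guide 2 (0.02 after quantile normalization), Wnt5a between guides (-0.01 after quantile normalization and -0.02 after trimmed mean rescaling) and Znrf3 with guide 1 (0.03 after trimmed mean rescaling). Over single left-out libraries, Fzd2 ranged from -0.06 to 0.03, Wnt5a from -0.01 to 0.05, Znrf3 from -0.07 to 0.07, Gsk3a between guides from -0.05 to 0.01 and Wif1 between guides from -0.01 to 0.09. The causes were not tested. Between guides, Nkd2 lost its call with a pseudocount of 0.1 FPKM (0.54, limma adjusted p = 0.0546), and Dkk3 and Gsk3b gained one in 2 fits each. Depth is unknown, so the precision of members under 1 FPKM rests on the spread of 3 libraries.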
